A study of Mus musculus with 12 samples.

Results

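Oxidative phosphorylation, the process by which mitochondria turn the energy of food molecules into ATP, is carried out by 5 protein complexes of the inner mitochondrial membrane. The genes for most of their subunits lie in the nucleus, and the transcripts of 83 of these were examined here among 80012 loci counted in RNA-Seq libraries of mouse embryonic stem cells (ESCs) and of their differentiating progeny. The members were found by gene symbol: the complex I genes starting Ndufa, Ndufb, Ndufc, Ndufs and Ndufv, the complex II genes Sdha to Sdhd, the Uqcr genes of complex III, the Cox4 to Cox8 genes of complex IV and the Atp5 genes of complex V. Assembly factors and pseudogenes were left out. Of the 83 members, 82 passed the filter on low values (a mean above 0.1 FPKM in at least 1 group), namely 37 of complex I, 4 of complex II, 8 of complex III, 16 of complex IV and 17 of complex V. The member that did not pass was Cox8b, a complex IV isoform of heart and skeletal muscle. Ndufab1 and Cyc1, further subunits of complexes I and III, do not match the symbols, and Cyc1 is described below beside the members. Complexes were assigned by symbol, so Ndufa4, described as a subunit of complex IV, and its relative Ndufa4l2 were counted in complex I. The complex IV gene Cox4i1 and the subunits encoded by mitochondrial DNA were not analysed here.

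Complexes I, III and IV pass electrons from nutrients to oxygen and pump protons across the membrane, complex II feeds electrons in from the citric acid cycle, and complex V (ATP synthase) lets the protons flow back to make ATP. Several subunits exist as pairs of genes of which one is used in most cells and the other in particular tissues such as heart, skeletal muscle, lung or testis. Mouse ESCs draw on both respiration and glycolysis, and the balance shifts as they leave pluripotency.

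All 12 libraries came from 1 reporter ESC line of C57BL/6 background that carries an EGFP cassette at the transcription start of the endogenous Eomes gene, which encodes a T-box factor of the mesendoderm. Undifferentiated cells at day 0, grown with leukaemia inhibitory factor on mouse embryonic fibroblast feeders, formed the ESC group. Embryoid bodies from hanging drops were dissociated at day 3 and sorted by EGFP into a negative (Eo-) and a positive (Eo+) fraction. Each group had 4 libraries, numbered 1, 2, 5 and 6, from separate rounds of differentiation of that line. The hanging drops were made in a differentiation medium with ascorbic acid and thioglycerol, for which the study lists no leukaemia inhibitory factor. Culture conditions thus also separated ESCs from both fractions. No deletion distinguished the groups.

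Locus counts were 648413022 to 837308168 per library, and 3 counts, the limit that a count of 0 allows, corresponded to 0.00358 to 0.00463 CPM (counts relative to the scaled library size). Eomes held 46.5 ± 8.82 CPM in ESC, 137 ± 22.2 in Eo- and 527 ± 96.9 CPM in Eo+ libraries (SD, n = 4 each) and was higher in Eo+ than in Eo- cells by 1.94 ± 0.15 on the log2 scale (± SE, limma adjusted p = 5.49e-07). The 7 pluripotency markers summed to 2505 to 3389.9 CPM in ESC, 1140 to 1497 in Eo- and 517 to 805 in Eo+ libraries, and the 7 mesendoderm markers to 94.0 to 292, 262 to 526 and 1806 to 3069.8 CPM. The 10 fibroblast markers, of which none was at the limit of 3 counts in all libraries of a group, summed to 99.4 to 239.5 CPM in ESC libraries against 30.3 to 40.4 in Eo- and 29.9 to 44.6 in Eo+ libraries. Replicate 1 of Eo- stood apart from the other 3 of its group: it was the lowest of the 4 at 63 of the 73 constitutive subunits, by a median of 0.16 on the log2 scale under the group mean. The same library was lower by a median of 0.17 at 299 protein-coding genes (PCGs) of at least 30 CPM with under 1500 bases of exon, and higher by 0.03 at 3173 such PCGs with at least 5000 bases. It also held the highest sum of 3 primitive blood markers in its group, 97.3 CPM against 3.16 to 5.01 CPM in the other 3. The 5 visceral endoderm markers, all called higher in Eo+ vs ESC, summed to 0.472 to 1.26 CPM in ESC, 1.02 to 8.57 in Eo- and 2.83 to 52.1 CPM in Eo+ libraries. The highest sum was that of replicate 1 of Eo+, without which 32 members were called in Eo+ vs ESC instead of 37. The part of these differences in the results was not tested. The sums and counts for Eo- cells, and the calls lost without replicate 1 of Eo-, are given below.

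The 83 members took 1.29% to 1.44% of the locus counts of a library. Read as FPKM, which divides counts by exon length and so allows levels of different genes to be set side by side, their sum was 5723 ± 214 in ESCs, 5458 ± 482 in Eo- and 5215 ± 75.8 in Eo+ cells (SD, n = 4 each). Complex V had the highest sum, at 2016 ± 82.3 FPKM in ESCs. Complex II, whose 4 subunits are all encoded in the nucleus, had the lowest, at 155 ± 6.23 FPKM. The sums cover 37, 4, 8, 17 and 17 members of complexes I to V, so their order also depends on these numbers. The highest member was Atp5b, the catalytic beta subunit of ATP synthase, at 554 ± 45.2 FPKM in ESCs, 449 ± 23.3 in Eo- and 418 ± 17.2 in Eo+ cells. In the other complexes the highest over all libraries were Cox5a (279 ± 7.10 FPKM in ESCs), Uqcrh (136 ± 13.6), Ndufa6 (116 ± 3.71) and Sdha (60.9 ± 3.72). Exon length here is that of the assembled locus, which exceeds the length of the main transcript at many genes, so these levels are approximate. Reads that aligned to more than 1 place, 22.4% to 26.2% of alignments, were not counted, and many of these genes have processed pseudogenes of near-identical sequence, so a part of their reads may be missing.

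Summed over each complex, the levels in Eo+ cells were 0.982 times those of ESCs for complex I and 1.01 times for complex II. The ratios were 0.899 for complex III, 0.841 for complex IV and 0.889 for complex V. In complexes IV and V every Eo+ library lay below every ESC library, while in complexes I and II the groups overlapped. In complex III they were barely apart, with at most 702 FPKM in Eo+ and at least 704 FPKM in ESC libraries, and with library totals they overlapped (up to 698 and from 689 FPKM). Complex IV had the widest separation, with 920 to 970.2 FPKM in the Eo+ and 1088 to 1182 FPKM in the ESC libraries. Eo- cells lay between both for complexes III, IV and V, with ratios to ESCs of 0.956, 0.948 and 0.912, but their libraries were spread widely. Without replicate 1 of Eo- these ratios were 0.998, 0.986 and 0.941. For complex IV they held 940.5 FPKM in replicate 1, 1167 in replicate 2, 1159.7 in replicate 5 and 1011 in replicate 6. These sums are a description without a test. Scaling by library totals instead of TMM factors (trimmed mean of M-values) gave Eo+ ratios of 1.01, 1.04, 0.929, 0.869 and 0.917 for complexes I to V. The Eo- ratios for complexes III, IV and V were then 1.0, 0.995 and 0.957, so that Eo- cells no longer lay below ESCs in complex III (747 and 744 FPKM). Whether the transcripts were fewer per cell or the cells that hold them were fewer cannot be told apart in such bulk libraries.

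**Figure D1:**
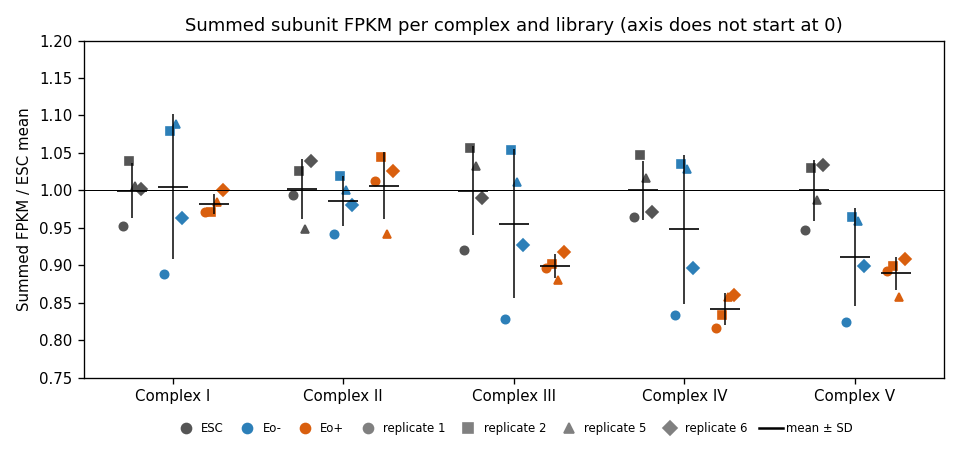
Summed FPKM of the members of each complex in each of the 12 libraries, divided by the ESC mean of that complex, with grey points for ESC, blue for Eo- and orange for Eo+ cells. Marker shapes give the replicate number and black bars the mean ± SD of 4 libraries; the 4 Eo+ libraries of complexes IV and V lie under all ESC libraries, those of complex III do so only narrowly (and not with library totals), and replicate 1 of Eo- is the lowest of its group in all 5 complexes.

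The comparison of Eo+ cells with ESCs asks how these transcripts differ once pluripotent cells have become mesendoderm. Members were called less often than loci in general, with more falls than rises in Eo+ cells, and the changes were small outside the tissue isoforms. Of the 82 members, 37 were called by limma (adjusted p of at most 0.05 over all 17922 loci tested), 11 higher and 26 lower in Eo+ cells. This share of 45.1% stood beside 71.9% of all loci tested, and beside 67.7% of the 5991 PCGs of at least 30 CPM. It was 32.4% in complex I and 41.2% in complex V, while 6 of 8 members of complex III and 12 of 16 of complex IV were called, a share near that of all loci, and 0 of complex II. At 38 members all Eo+ libraries lay on one side of all ESC libraries (64.5% of all loci tested). Among all loci tested, 35.8% were called higher and 36.1% lower. The median absolute log2 fold change was 0.16 over the members, 0.68 over all loci tested and 0.33 over PCGs of at least 30 CPM. Among the 299 such PCGs with under 1500 bases of exon, which are nearer to the members in length, 53.8% were called with a median of 0.24. The median SE was 0.08 for the members and for all PCGs of at least 30 CPM alike. A called difference of at least 2-fold was found at 5 members, all of them tissue isoforms (38.1% of all loci tested), and at 0 of the 73 constitutive subunits, whose changes ran from -0.80 to 0.39. Of the 5, Cox6a2 passed the filter only through ESCs, the group where it was high, so its direction was fixed by the filter. The members with a locus to themselves (69 tested, the other 13 sharing an assembled locus with a neighbouring gene) gave 9 higher and 22 lower.

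How many members were called higher depended on the settings, and most falls did not. With the same loci tested, 10 of the 11 members called higher and 25 of the 26 called lower in Eo+ cells were called under all 3 scalings (TMM factors, DESeq2 size factors and library totals). Further fits tested another set of loci, which changes the filter, the TMM factors and the adjustment together. Over the 6 settings, the same 25 falls were kept, but of the rises only 3, those of Ndufs4, Cox4i2 and Atp5s. The 8 rises without Cox4i2, Ndufs4 and Atp5s ran from 0.14 at Uqcrc2 to 0.33 at Atp5k. Isoforms under 1 CPM were not tested under 1 of the 6 settings. The median of all loci tested moved by less than 0.1 between TMM, DESeq2 and library-total scaling, from -0.044 to 0.047 in this comparison.

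**Figure D2:**
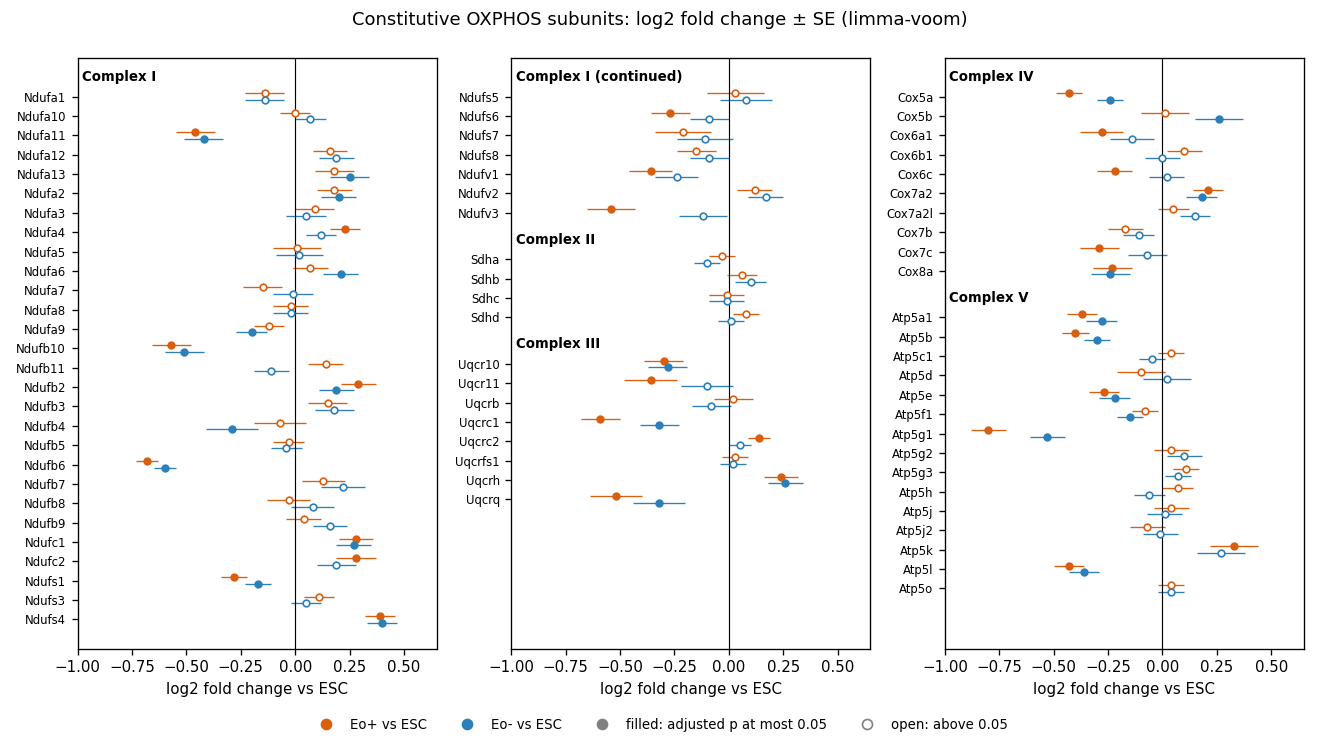
Log2 fold change (x axis) with its SE for 72 of the 73 constitutive subunits, by complex, in Eo+ vs ESC (orange) and Eo- vs ESC (blue), with filled points for an adjusted p of at most 0.05. The widest falls in Eo+ cells are those of Atp5g1, Ndufb6 and Uqcrc1 (-0.80, -0.68 and -0.59) and in Eo- cells that of Ndufb6 (-0.60), the widest rise is that of Ndufs4 (0.39 in Eo+ and 0.40 in Eo- cells), and no subunit of complex II is filled.

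In complex I, 12 of 37 members were called in Eo+ vs ESC, 5 higher and 7 lower, and the median log2 fold change was 0.01. Ndufa4 was among the 5 higher (0.23 ± 0.07, limma adjusted p = 0.0086), a call not kept under all 6 settings. Like Ndufa4l2, it was placed in none of the parts described below. The part of the enzyme that takes electrons from NADH held 5 of the 12, among 8 genes, a share of 62.5% that lay under the 71.9% of all loci tested. Ndufv1, the flavin-binding subunit where NADH is oxidised, measured 161, 196, 151 and 175 CPM in ESCs and 126, 139, 121 and 145 CPM in Eo+ cells. The groups did not overlap, and the fall of 0.36 ± 0.10 had an adjusted p of 0.00649 (limma). Ndufs1, the largest iron-sulphur subunit of the same part, fell by 0.28 ± 0.06 (adjusted p = 0.000575). Ndufv3, a small accessory subunit beside Ndufv1, held 95, 106, 83.7 and 98.9 CPM in ESC libraries and 65.3, 63.4, 75.3 and 59.4 CPM in Eo+ libraries. It fell by 0.54 ± 0.11 (adjusted p = 0.000563), the largest fall in this part. Ndufs4, an accessory subunit of the same part needed for a stable enzyme and mutated in Leigh syndrome, went the other way. Its level was 89.5, 91.8, 96.6 and 99.2 CPM in ESCs and 116, 125, 132 and 120 CPM in Eo+ cells, a rise of 0.39 ± 0.07 (adjusted p = 0.000197) with no overlap. Among the 8 genes of the part that hands electrons to ubiquinone, 0 were called by limma, edgeR or DESeq2 and 0 had an unadjusted p under 0.05, with log2 fold changes from -0.21 to 0.11. Of these, Ndufs3, Ndufs7 and Ndufs8 gave 0.11, -0.21 and -0.15, with SE of 0.07 to 0.13. Some were called under another setting, Ndufs3 higher with library totals, Ndufs8 lower with a filter of 1 CPM and Ndufs7 lower with the replicate number as a block. Ndufv2, the remaining core subunit of the NADH part, gave 0.12 ± 0.08 and was called higher with the block. Over the 15 core subunits of all complexes, 5 fell and 0 rose by limma in Eo+ vs ESC (5 and 0 by edgeR and by DESeq2, and at an unadjusted p under 0.05), namely Ndufs1, Ndufv1, Uqcrc1, Atp5a1 and Atp5b. The 5 were 33.3% of the list, near the 36.1% of all loci tested that were called lower. That list leaves out Uqcrc2, the other core protein of complex III, which was called higher (0.14 ± 0.05, adjusted p = 0.0307), though not under all 3 scalings.

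In the membrane arm of complex I, which carries the proton pumps, 3 of 19 genes rose and 3 fell. Ndufb10, an accessory subunit of this arm, was measured at 84.1, 101, 97.8 and 108 CPM in ESCs and at 66.5, 63.4, 68.5 and 62.9 CPM in Eo+ cells. Its fall of 0.57 ± 0.09 had an adjusted p of 7.89e-05. Ndufa11, which lies where the arm meets complex III in supercomplexes, fell by 0.46 ± 0.09 (adjusted p = 0.000429). The locus of Ndufb6 held 236, 215, 228 and 217 CPM in ESC and 142, 137, 137 and 143 CPM in Eo+ libraries. The groups were well apart (-0.68 ± 0.05, adjusted p = 6.62e-08), but the locus also contains Topors, a gene for a ubiquitin and SUMO ligase, so the gene behind this fall is uncertain. Likewise the rise at the locus of Ndufb2, 0.29 ± 0.08 (adjusted p = 0.00348), cannot be told apart from a rise of Adck2. Ndufc1, a small subunit of the arm with its locus to itself, rose by 0.28 ± 0.08 (adjusted p = 0.00754), a call that was not kept under all 6 settings.

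The 4 subunits of complex II, which is also the succinate dehydrogenase of the citric acid cycle, gave no call in any of the 3 comparisons (0 of 4 each by limma, 0 at an unadjusted p under 0.05 and 0 by edgeR). Other settings called Sdha and Sdhb in Eo- vs ESC, in opposite directions. Sdha was lower by 0.15 to 0.17 with DESeq2, with DESeq2 size factors and with TMM factors over all classes of locus, and Sdhb was higher by 0.17 with library totals. The lowest adjusted p by limma was 0.161. Sdha, the flavoprotein that oxidises succinate, held 258, 264, 241 and 279 CPM in ESCs, 244, 247, 232 and 249 CPM in Eo- and 261, 264, 237 and 260.3 CPM in Eo+ cells. The 3 groups overlapped. The differences of Sdha, Sdhb, Sdhc and Sdhd between Eo+ cells and ESCs were -0.03, 0.06, -0.01 and 0.08, with SE of 0.06 to 0.08. The locus of Sdhd is shared with the predicted gene AU019823.

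In complex III, 6 of 8 members were called, 2 higher and 4 lower. Uqcrc1, a core subunit of the matrix side, measured 297, 356, 285 and 347 CPM in ESCs, 228, 293, 246 and 260.1 CPM in Eo- and 214, 213, 202 and 223 CPM in Eo+ cells. Eo+ libraries lay below those of both other groups. The fall against ESCs was 0.59 ± 0.09 (adjusted p = 3.57e-05) and that against Eo- cells 0.27 ± 0.09 (adjusted p = 0.0232). Cyc1, the cytochrome c1 subunit that the symbols did not take, was lower in all 3 comparisons as well, by 0.51 ± 0.09 from ESCs to Eo+ cells (adjusted p = 0.000166), by 0.26 ± 0.09 from ESCs to Eo- cells and by 0.25 ± 0.09 between both fractions. Uqcrfs1, the Rieske iron-sulphur protein that together with Cyc1 carries electrons onward, showed 142, 159, 154 and 137 CPM in ESCs and 147, 153, 147 and 156 CPM in Eo+ cells, with a difference of 0.03 ± 0.06 that was not called. The small accessory subunits were divided. Uqcr10, Uqcr11 and Uqcrq fell by 0.30, 0.36 and 0.52, and Uqcrh, the hinge protein that binds cytochrome c1, rose by 0.24 ± 0.08 (adjusted p = 0.0131), a rise not kept under all 6 settings.

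Complex IV, cytochrome c oxidase, had 12 of 16 members called in Eo+ vs ESC, 2 higher and 10 lower. Without the tissue isoforms the count was 6 of 10, 1 higher and 5 lower, with a median of -0.20. Cox5a, which carries a binding site for thyroid hormone on the matrix side, measured 247, 248, 257 and 259 CPM in ESCs, 198, 229, 231 and 203 CPM in Eo- and 184, 181, 199 and 189 CPM in Eo+ cells. Against ESCs it fell by 0.43 ± 0.06 in Eo+ cells (adjusted p = 2.96e-05) and by 0.24 ± 0.06 in Eo- cells, and it was lower by 0.19 ± 0.06 in Eo+ than in Eo- cells. Cox6a1, Cox6c and Cox7c, all single-span subunits around the catalytic core, fell by 0.28, 0.22 and 0.29 in Eo+ vs ESC. Cox8a also fell, by 0.23 ± 0.09 (adjusted p = 0.0260), on a locus joined to Naa40. Cox5b, the zinc-binding partner of Cox5a, was not called in Eo+ vs ESC (0.01 ± 0.11). In Eo- cells it was higher than in ESCs by 0.26 ± 0.11 (adjusted p = 0.0488), with overlap, where Cox5a was lower.

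In Eo+ vs ESC, 4 tissue isoforms of complex IV (Cox4i2, Cox7a1, Cox7b2 and Cox8c) held the widest differences among the members, Cox6a2 aside. Cox4i2 (ENSMUSG00000009876, chromosome 2, 152753763 to 152765037, plus strand, mm10), the lung and hypoxia form of the subunit that senses ATP, was the only tissue isoform called higher in Eo+ cells. Its levels were 0.674, 1.02, 0.437 and 1.04 CPM in ESCs, 1.29, 1.25, 1.11 and 1.05 CPM in Eo- and 4.33, 2.79, 2.40 and 3.89 CPM in Eo+ cells. The Eo+ libraries lay above all others, by 2.13 ± 0.27 against ESCs (adjusted p = 7.55e-06, 4.39-fold) and by 1.48 ± 0.25 against Eo- cells (adjusted p = 0.00034). The difference of Eo- cells from ESCs, 0.66 ± 0.29, was not called, although the libraries did not overlap, and it was called with library totals and with the replicate block (0.73 and 0.62).

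Cox8c, Cox7b2 and Cox6b2, described as testis isoforms, were all lower in Eo+ cells. Cox8c (ENSMUSG00000043319, chromosome 12, 102899306 to 102900534, plus strand) had 199, 238, 240 and 302 counts in the ESC libraries, 141, 128, 112 and 95 in Eo- and 11, 12, 8 and 6 in Eo+ libraries. Every group was apart from the others, with a log2 difference from ESCs of -4.61 ± 0.38 for Eo+ cells (adjusted p = 1.34e-07) and of -1.09 ± 0.25 for Eo- cells (adjusted p = 0.0018), and of -3.52 ± 0.40 between both fractions (adjusted p = 1.27e-05). Cox7b2 (ENSMUSG00000049387, chromosome 5, 71442817 to 71548205, minus strand) differed from this pattern. Its levels were 0.378, 0.558, 0.563 and 0.550 CPM in ESCs and 0.394, 0.458, 0.531 and 0.439 CPM in Eo- cells, which overlapped (-0.16 ± 0.22). In Eo+ cells it was 0.101, 0.0685, 0.0801 and 0.162 CPM, lower by 2.38 ± 0.29 than in ESCs (adjusted p = 5.16e-06) and by 2.22 ± 0.29 than in Eo- cells (adjusted p = 4.15e-05). Cox6b2, whose locus also holds Fam71e2, fell by 0.64 ± 0.14 against ESCs and by 0.51 ± 0.14 against Eo- cells (adjusted p = 0.00116 and 0.0103). Cyct, the testis form of the electron carrier cytochrome c and not a subunit, averaged 5.95 ± 1.59 CPM in ESCs, 1.88 ± 0.305 in Eo- and 0.15 ± 0.0447 in Eo+ cells (-5.30 ± 0.32 for the latter against ESCs, adjusted p = 7.81e-09).

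Of the heart and skeletal muscle isoforms, Cox7a1 was well detected, at 17.7 ± 3.91 FPKM in ESCs, and Cox6a2 and Cox8b were near the limit that a count of 0 allows. Cox7a1 (ENSMUSG00000074218, chromosome 7, 30184171 to 30186028, plus strand) held 5.02, 7.54, 5.39 and 7.77 CPM in ESCs, 3.73, 4.82, 5.23 and 3.6 CPM in Eo- and 3.53, 2.35, 4.14 and 2.27 CPM in Eo+ cells. It fell by 1.07 ± 0.22 in Eo+ vs ESC (adjusted p = 0.00063) without overlap, and by 0.55 ± 0.21 in Eo- vs ESC (adjusted p = 0.0344) with overlap, a call lost without replicate 1 of Eo- (-0.48 ± 0.23, adjusted p = 0.0907). Cox6a2 had 32, 42, 15 and 136 counts in ESC libraries, 6, 0, 1 and 14 in Eo- and 7, 0, 0 and 0 in Eo+ libraries. At such counts the fitted fold change (-5.31 ± 1.15 in Eo+ vs ESC, adjusted p = 0.000886) depends on the constant that voom adds, the gene entered the test only through its ESC level, and the ESC mean of 0.0798 ± 0.0848 CPM rests largely on replicate 6. Cox8b had 0, 10, 1 and 9 counts in ESCs, 1 in all Eo- libraries together and 0 in Eo+ libraries, so it was not tested. The sum of the fibroblast markers was also lower in both fractions than in ESCs. Not every marker followed the sum. Of 9 tested, 7 were called lower and 1 higher in each fraction against ESCs. The higher ones were Pdgfrb in Eo+ cells (0.70 ± 0.16) and Thy1 in Eo- cells (0.62 ± 0.20). Within the ESC group the sum was highest in replicate 1 and lowest in replicate 6 (239.5 and 99.4 CPM), where Cox7a1 was at its lowest and highest (5.02 and 7.77 CPM). The part of feeder RNA in the levels of these isoforms was not tested. Ndufa4l2, the hypoxia-inducible relative of Ndufa4, ranged from 1.90 to 13.0 CPM among ESC, from 0.810 to 5.72 among Eo- and from 4.14 to 7.23 CPM among Eo+ libraries. The groups overlapped. Ndufa4l2 was called in no comparison. Eo+ cells differed from ESCs by 0.06 ± 0.54, Eo- cells from ESCs by -1.23 ± 0.60 (adjusted p = 0.0929) and Eo+ from Eo- cells by 1.29 ± 0.60 (adjusted p = 0.0954). Without replicate 5 of ESC it was called lower in Eo- vs ESC (-1.77 ± 0.49, adjusted p = 0.00785) and higher in Eo+ vs Eo- (adjusted p = 0.0434), and without replicate 2 of Eo- lower in Eo- vs ESC (-1.63 ± 0.65, adjusted p = 0.0469).

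**Figure D3:**
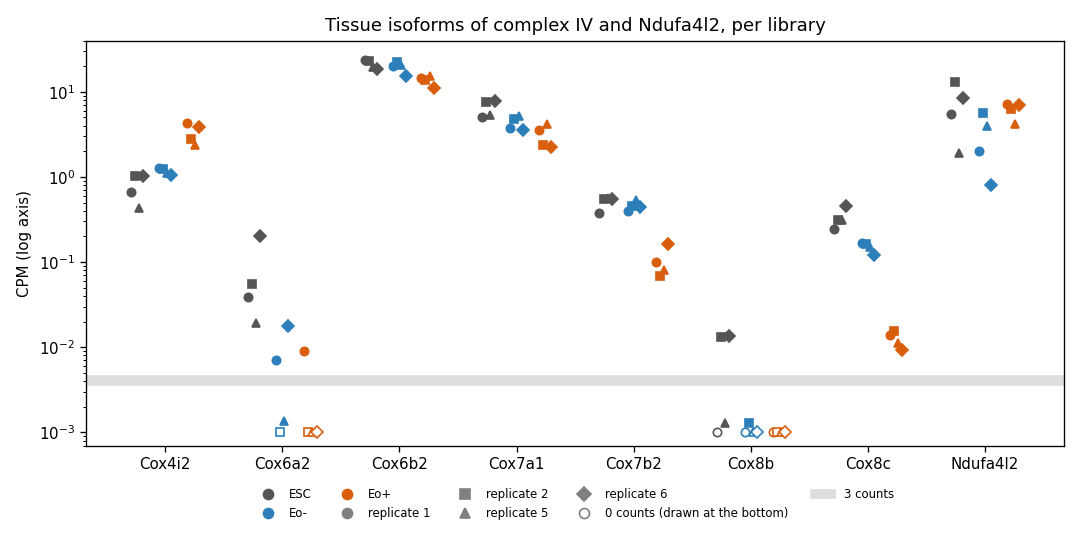
CPM of the 8 tissue isoforms in each of the 12 libraries on a log axis, with grey points for ESC, blue for Eo- and orange for Eo+ cells, shapes for replicate numbers, open points at the bottom for libraries with 0 counts, and a grey band at the CPM of 3 counts. Cox4i2 rises to 2.40 to 4.33 CPM in Eo+ cells, Cox7b2 and Cox8c drop in Eo+ cells, and the 3 groups of Ndufa4l2 overlap.

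In complex V, 7 of 17 members were called in Eo+ vs ESC, 2 higher and 5 lower. Atp5a1 and Atp5b, the alternating subunits of the catalytic head, both fell. Atp5b measured 2293, 2523, 2099 and 2468 CPM in ESCs, 1771, 2006, 1904 and 1935 CPM in Eo- and 1745, 1833, 1679.6 and 1826 CPM in Eo+ cells. Both fractions lay below all ESC libraries, by 0.30 ± 0.06 in Eo- (adjusted p = 0.00104) and by 0.40 ± 0.06 in Eo+ cells (adjusted p = 6.14e-05). Atp5a1 fell by 0.28 ± 0.07 and 0.37 ± 0.07 in the same comparisons (adjusted p = 0.00327 and 0.000243). Atp5c1 and Atp5d of the central stalk were not called (0.04 ± 0.06 and -0.10 ± 0.11 in Eo+ vs ESC), while the locus of Atp5e, the third gene of that stalk, which also holds Slmo2, fell by 0.27 ± 0.07 (adjusted p = 0.00231) without overlap. All 4 genes of the peripheral stalk (Atp5f1, Atp5h, Atp5j and Atp5o) lay between -0.08 and 0.07 in that comparison and were not called. Atp5f1 was called lower with a filter of 1 CPM and without a filter on low values (-0.16 and -0.14). Of the small membrane subunits, Atp5l fell by 0.43 ± 0.07 and Atp5k, known to support dimers of the enzyme, rose by 0.33 ± 0.11. Atp5s and Atp5sl carry the symbol but are not structural subunits of the enzyme. Atp5s, or factor B, rose from 5.64 ± 0.547 to 8.29 ± 0.72 CPM (0.56 ± 0.11, adjusted p = 0.000542).

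The rotor ring of ATP synthase is built of many copies of subunit c, which 3 genes encode. The mature subunit is the same from each, and the genes differ in the targeting peptide that is removed on import and in the bases of the shared stretch. These coding stretches, 225 bases each, are shown because the reads that tell the genes apart come in part from their differences. They were read from GENCODE transcripts on the GRCm38 genome (mm10), spliced, 5′ to 3′ of the minus strand, from chr11:96073107-96073635 (Atp5g1), chr15:102663017-102665166 (Atp5g2) and chr2:73908596-73909296 (Atp5g3). Capitals mark the bases that differ from Atp5g2, 34 in Atp5g1 (84.9% identity) and 48 in Atp5g3 (78.7%), and Atp5g1 and Atp5g3 differ at 45.
Atp5g1: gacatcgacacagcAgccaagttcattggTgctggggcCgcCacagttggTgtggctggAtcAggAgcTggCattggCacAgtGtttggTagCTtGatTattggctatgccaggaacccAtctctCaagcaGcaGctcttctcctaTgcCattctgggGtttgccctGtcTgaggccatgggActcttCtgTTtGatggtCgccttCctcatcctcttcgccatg
Atp5g2: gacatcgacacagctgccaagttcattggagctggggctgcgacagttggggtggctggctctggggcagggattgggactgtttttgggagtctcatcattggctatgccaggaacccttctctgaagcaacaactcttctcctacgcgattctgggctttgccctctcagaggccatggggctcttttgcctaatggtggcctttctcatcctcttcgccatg
Atp5g3: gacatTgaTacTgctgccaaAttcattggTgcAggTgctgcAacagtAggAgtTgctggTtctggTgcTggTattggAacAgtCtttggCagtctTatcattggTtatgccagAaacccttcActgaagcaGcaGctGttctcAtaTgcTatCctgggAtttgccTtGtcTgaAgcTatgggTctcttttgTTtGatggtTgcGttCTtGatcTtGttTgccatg
The 3 genes behaved differently. Atp5g1 (ENSMUSG00000006057, chromosome 11, 96068852 to 96075670, minus strand) measured 245, 289, 286 and 282 CPM in ESCs, 161, 211, 191 and 199.9 CPM in Eo- and 152, 161, 152 and 167 CPM in Eo+ cells. It was lower in Eo+ than in ESC libraries by 0.80 ± 0.08 (adjusted p = 1.23e-06), in Eo- than in ESC libraries by 0.53 ± 0.08 (adjusted p = 8.29e-05), and in Eo+ than in Eo- libraries by 0.27 ± 0.08 (adjusted p = 0.0194, with overlap). Atp5g2 and Atp5g3 were called in no comparison, with 0.04 ± 0.08 and 0.11 ± 0.06 in Eo+ vs ESC, although Atp5g3 was called higher there and both were called higher in Eo- vs ESC with library totals.

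The share of each gene in the summed FPKM of the family does not depend on how libraries are scaled. Atp5g1 made up 20.7%, 23.0%, 22.7% and 22.9% of it in ESCs, 15.0%, 16.3%, 15.7% and 16.3% in Eo- and 13.3%, 13.4%, 13.6% and 13.5% in Eo+ cells. The 3 groups did not overlap. Eo+ cells differed from ESCs by -8.84 percentage points, Eo- cells from ESCs by -6.51 and both fractions from each other by -2.33, each with p = 0.0286 in a two-sided exact permutation test, the smallest that 4 against 4 libraries allow, and 0.0476 after Benjamini-Hochberg adjustment over 15 tests of 5 families. Atp5g3 held 50.8 ± 1.91% in ESCs and 57.5 ± 0.796% in Eo+ cells, and Atp5g2 26.9 ± 1.95% and 29.0 ± 0.793%. In the Cox7a family, Cox7a1 made up 40.4 ± 6.47% of the sum with Cox7a2l in ESCs, 29.3 ± 2.98% in Eo- and 23.8 ± 5.54% in Eo+ cells. Both fractions differed from ESCs (exact permutation p = 0.0286, adjusted 0.0476) and overlapped with each other (p = 0.171 by the same exact test, adjusted 0.214). Within the replicate numbers that pair both fractions, the share was lower in Eo+ than in Eo- cells in 4 of 4 pairs, and an exact test over 4 pairs cannot give less than 0.125. Cox7a2 shares its assembled locus with Tmem30a and was left out of this sum. That joined locus held 215 ± 16.8 CPM in ESCs, against 6.43 ± 1.42 CPM for Cox7a1. The percentages are therefore not shares of all Cox7a transcripts. Cox7b2 was 0.783 ± 0.126% of its pair with Cox7b in ESCs and 0.179 ± 0.0764% in Eo+ cells, and Cox6a2 was 0.0513 ± 0.0565% of its pair with Cox6a1 in ESCs and 0.00181 ± 0.00361% in Eo+ cells, so that the ubiquitous gene supplied nearly all transcripts of these pairs in every group. The family shares of Cox4i2, Cox6b2 and the Cox8 genes could not be computed, because a partner was not analysed here or lay on a shared locus.

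**Figure D4:**
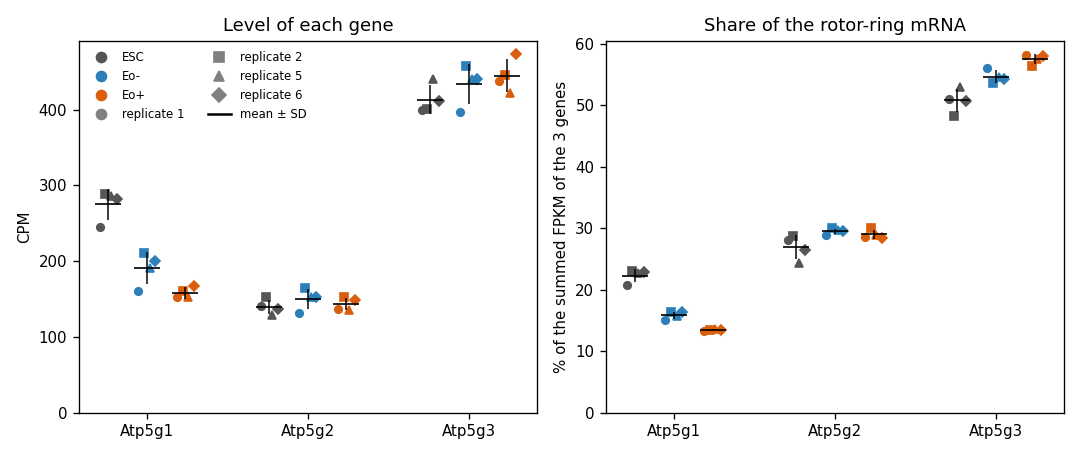
CPM (left) and percentage of the summed FPKM of the family (right) of the 3 rotor-ring genes in each library, with colours for the groups, shapes for replicate numbers and black bars for the mean ± SD of 4 libraries, both axes starting at 0. Atp5g1 falls from 22.3% in ESCs to 15.8% in Eo- and 13.5% in Eo+ cells without overlap, while the CPM of Atp5g2 and Atp5g3 overlap between groups.

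The comparison of Eo- cells with ESCs asks what changes in cells of the same embryoid bodies that do not express the reporter. Fewer members were called than in Eo+ cells, again with more falls than rises, and the largest falls were at genes of complexes I, IV and V. The count was 31 of 82 (37.8%), 11 higher and 20 lower, beside 62.2% of all loci tested (30.9% higher and 31.3% lower) and 57.3% of PCGs of at least 30 CPM. Only 17 members did not overlap between the groups (55.8% of all loci tested). Cox8c was called at over 2-fold, as was Cox6a2, which the filter kept only for its ESC level (28.3% of all loci tested had such calls). The median absolute log2 fold change was 0.15, against 0.51 over all loci tested. The direction of the small changes depended on the scaling, under which the median of all loci tested ranged from -0.036 (DESeq2 size factors) to 0.088 (library totals). With library totals 26 members were called higher and 14 lower, with DESeq2 size factors in the same fit 4 higher and 22 lower, and with TMM factors over all classes of locus 2 higher and 23 lower. Without replicate 1 of Eo- the count was 17 higher and 13 lower, whereas leaving out ESC replicate 1 gave 4 higher, Eo- replicate 5 gave 4 and Eo- replicate 2 gave 6. Of the 31 calls, 23 were kept without replicate 1 of Eo-, 7 members were added, and 8 were lost (Ndufa9, Ndufb4, Uqcr10, Uqcrq, Cox7a1, the Cox8a locus, Atp5f1 and Atp5s). With the replicate number as a block, 18 were called higher and 20 lower.

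Under all of the 6 settings of scaling and filter in which they were tested, 14 members were called lower in Eo- cells and 2 higher (Ndufs4 and Uqcrh). The tissue isoforms Cox6a2 and Cox8c were among the 14, but the filter of 1 CPM left them untested. The others were Ndufa11, Ndufb10 and the Ndufb6 locus of complex I, Uqcr10 and Uqcrc1 of complex III, Cox5a and the Cox8a locus of complex IV, and Atp5a1, Atp5b, the Atp5e locus, Atp5g1 and Atp5l of complex V. Ndufb10 measured 61.1, 76.7, 75.3 and 62.3 CPM in Eo- cells, below all ESC libraries (-0.51 ± 0.09, adjusted p = 0.00032). Ndufa11 held 83.6, 96.3, 88.5 and 83.8 CPM in ESCs against 55.2, 77.2, 66.4 and 65.8 CPM in Eo- cells (-0.42 ± 0.09, adjusted p = 0.0011). Ndufs4 rose to 112, 129, 134 and 123 CPM in Eo- cells, above all ESC libraries, by 0.40 ± 0.07 (adjusted p = 0.000228). Ndufa6, an accessory subunit of the ubiquinone part, rose by 0.21 ± 0.08 (adjusted p = 0.0286) and Ndufc1 by 0.27 ± 0.08 (adjusted p = 0.0116), neither under all 6 settings. Both Eo+ and Eo- cells were compared with the same 4 ESC libraries, so the values of the 2 comparisons are not independent of each other.

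The comparison of both sorted fractions, Eo+ vs Eo-, sets mesendodermal cells against other cells of the same embryoid bodies. Few members were called, most of them lower in Eo+ cells and 5 of these in complex IV, and the wide differences were again those of the tissue isoforms. The count was 11 of 82 (13.4%), 2 higher and 9 lower in Eo+ cells, beside 47.7% of all loci tested (23.0% higher and 24.6% lower) and 41.4% of PCGs of at least 30 CPM (29.8% of the short ones). The libraries did not overlap at 8 members (45.9% of all loci tested), and 3 calls, at Cox4i2, Cox7b2 and Cox8c, were of at least 2-fold (21.1%). The 2 higher members were Cox4i2 and Ndufb11, a membrane-arm subunit of complex I encoded on the X chromosome, with 69.3, 84.0, 77.3 and 71.5 CPM in Eo- and 94.9, 89.0, 81.3 and 92.3 CPM in Eo+ cells (0.25 ± 0.08, adjusted p = 0.0178, with overlap). The 9 lower members were Cox8c, Cox7b2, the Cox6b2 locus, Ndufv3, Atp5sl, Uqcrc1, Atp5g1, Cox6c and Cox5a. Ndufv3 measured 76.6, 98.2, 102 and 77.8 CPM in Eo- and 65.3, 63.4, 75.3 and 59.4 CPM in Eo+ cells (-0.42 ± 0.11, adjusted p = 0.00689). Cox6c held 164, 194, 214 and 169.9 CPM in Eo- cells and 155, 152, 159 and 160.3 CPM in Eo+ cells, a fall of 0.24 ± 0.08 (adjusted p = 0.0294). Atp5sl, a paralog of factor B with a role in building complex I, was higher in Eo- cells than in both other groups (50.8 ± 3.08 CPM, against 41.9 ± 4.0 in ESCs and 41.1 ± 3.14 in Eo+ cells). Its fall in Eo+ vs Eo- was 0.31 ± 0.08 (adjusted p = 0.00829), and its rise in Eo- vs ESC 0.28 ± 0.08 (adjusted p = 0.0105).

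Both fractions of a replicate number came from 1 set of differentiation, and a fit of these 8 libraries with the replicate number as a block called 17 members, 4 higher and 13 lower, with 57.1% of all loci tested called. All 11 members called without the block were among them. The 6 added were Ndufb4 and Atp5s, higher by 0.22 and 0.27, and Cox7a1, Uqcr11, Cox5b and Ndufs6, lower by 0.51, 0.26, 0.25 and 0.19. Without the block, Cox4i2 was called higher, and Cox8c, Cox7b2, the Cox6b2 locus and Ndufv3 lower, under all settings of scaling and filter in which they were tested, and with TMM factors over all classes of locus 6 members were called higher and 4 lower. The count without the block was 16, of which 14 lower, without replicate 1 of Eo-, 7 without replicate 2 of Eo- and 6 without replicate 1 of Eo+.

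**Figure D5:**
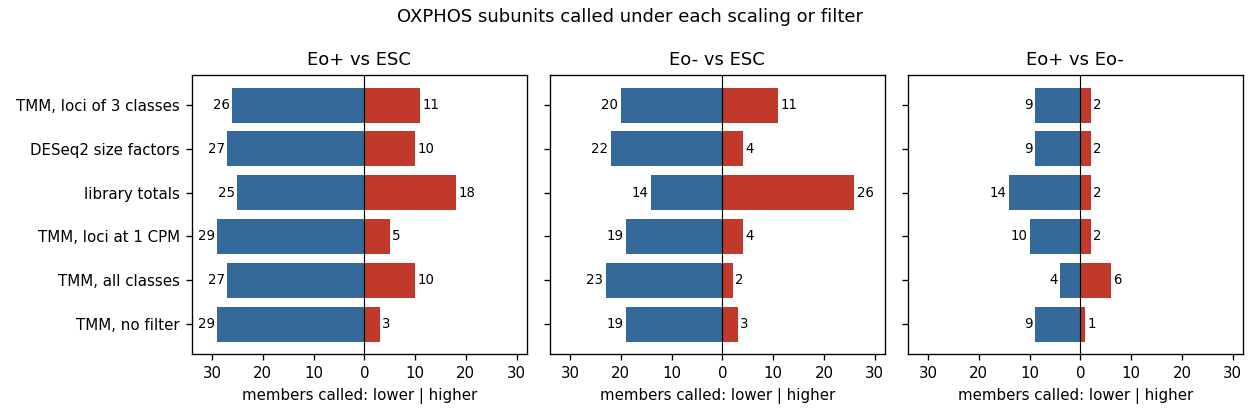
Number of members called lower (blue, to the left) and higher (red, to the right) in each comparison under 6 settings of scaling and filter, from the TMM factors of the main fit at the top to TMM factors without a filter on low values at the bottom. The falls in Eo+ vs ESC stay between 25 and 29, while the rises in Eo- vs ESC range from 2 to 26.

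Other genes of the pathway were counted from lists. Of 47 assembly factors tested, which build the complexes without remaining in them, 13 rose and 9 fell in Eo+ vs ESC (46.8% called, beside 71.9% of all loci). The widest were Taco1, a translation factor for a complex IV subunit (0.73 ± 0.13, adjusted p = 0.000156), and Ecsit of complex I assembly (-0.74 ± 0.11, adjusted p = 2.38e-05). In Eo- vs ESC 10 rose and 9 fell, and in Eo+ vs Eo- 5 rose and 4 fell (40.4% and 19.1% called). Of 11 genes for cytochrome c and for making ubiquinone, the mobile electron carriers, 5 rose and 4 fell in Eo+ vs ESC (81.8% called). Cycs, the cytochrome c of somatic cells, rose by 0.26 ± 0.11 (adjusted p = 0.0402), and Coq7, a hydroxylase of ubiquinone synthesis on a locus joined to Tmc7, by 0.75 ± 0.09 (adjusted p = 5.88e-06). The counts were 4 and 4 in Eo- vs ESC and 3 and 2 in Eo+ vs Eo- (72.7% and 45.5%, beside 62.2% and 47.7% of all loci).

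Among 14 regulators of mitochondrial biogenesis, 3 rose and 5 fell from ESCs to Eo+ cells, 2 rose and 4 fell from ESCs to Eo- cells, and 2 were higher and 2 lower in Eo+ than in Eo- cells (57.1%, 42.9% and 28.6% called, each under the share of all loci). Pprc1, a coactivator related to PGC-1 alpha, fell by 0.76 ± 0.09 in Eo+ vs ESC (adjusted p = 4.18e-06), and Gabpa, an ETS factor also known as NRF-2 alpha, by 0.53 ± 0.08 (adjusted p = 2.87e-05). Polg, the mitochondrial DNA polymerase, rose by 0.65 ± 0.11 (adjusted p = 7.87e-05). Nrf1, an activator of many genes for respiratory subunits, and Tfam, which packages mitochondrial DNA, were not called (0.01 ± 0.07 and 0.11 ± 0.07). Of 13 citric acid cycle genes, 4 rose and 4 fell in Eo+ cells and 2 rose and 1 fell in Eo- cells against ESCs, and 2 were higher and 1 lower in Eo+ than in Eo- cells (61.5%, 23.1% and 23.1%). Cs, the citrate synthase, fell by 0.60 ± 0.06 in Eo+ vs ESC (adjusted p = 3.91e-07), and Dlst, a subunit of oxoglutarate dehydrogenase, rose by 0.40 ± 0.06. Of 78 mitochondrial ribosomal proteins, 15 rose and 33 fell in Eo+ vs ESC, with a median of -0.16, 13 rose and 25 fell in Eo- cells against ESCs, and 6 were higher and 13 lower in Eo+ than in Eo- cells. These were 61.5%, 48.7% and 24.4% of the list, each under the share of all loci (71.9%, 62.2% and 47.7%). The widest changes in Eo+ cells against ESCs were those of Mrps6 (1.32 ± 0.13), on a locus joined to Slc5a3, and Mrps18b (-0.92 ± 0.08).

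The promoters of the members were read from RefSeq (GRCm38.p6), from 250 bases before to 50 bases after each start. A promoter was found for 69 of the 83 members, 75 promoters in all. The core of sites bound by the activator NRF1, which reads GCGCA, any base and GCGC, stood on either strand in 18 of the 75 promoters (24.0%) and in 4.6% of all 32851 promoters of that length. The letters AAGATGGCG, part of a longer site known for YY1, were in 12% against 1.4%, those of an ETS site, CCGGAAGT, in 6.67% against 3.89%, and those of an ERR site, TCAAGGTCA, in 2.67% against 0.423%. These motifs do not contain one another. The NRF1 letters were in promoters of 1 of 9 members called higher in Eo+ vs ESC, 4 of 20 called lower and 12 of 39 not called. The windows of 30 bases below hold the match in capitals, and were chosen to show a gene that fell (Uqcrc1, Ndufa11), one that rose (Atp5k) and genes that were not called (Atp5g2, Sdha). At Uqcrc1 the match lies on the strand opposite to the printed bases.
Uqcrc1, chr9:108936643-108936672, plus strand: cttccttacaGCGCTTGCGCctcagactcc
Ndufa11, chr17:56717692-56717721, plus strand: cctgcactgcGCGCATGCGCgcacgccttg
Atp5k, chr5:108434430-108434459, minus strand: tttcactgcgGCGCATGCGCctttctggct
Atp5g2, chr15:102671070-102671099, minus strand: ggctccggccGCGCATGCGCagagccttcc
Sdha, chr13:74350319-74350348, minus strand: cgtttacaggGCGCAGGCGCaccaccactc
In the rotor-ring family the letters were found in the promoters of Atp5g2 and Atp5g3, which were not called, and not in that of Atp5g1. A match describes the sequence, and binding of the factor was not measured here.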

How the data were processed

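Poly(A) RNA of 12 libraries was sequenced as strand-aware read pairs. The authors aligned the reads with STAR to mm10, assembled transcripts with Cufflinks and Cuffmerge 2.2.1 on the Ensembl annotation and counted reads per locus with HTSeq 0.6.1 (union mode). The deposited counts are raw read counts, without normalization, of 648413022 to 837308168 per library, and positions and symbols came from the deposited transcript annotation. The authors' normalised table was not used. A locus of 3 counts or fewer lies within the limit that a count of 0 allows, which covers counting error only.

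The members and lists were chosen with earlier results of these data known. Loci with a mean above 0.1 FPKM in at least 1 group (17922 PCGs and long non-coding RNAs) were tested with voom and limma 3.58.1 (R 4.3.3) on TMM-scaled libraries (edgeR 4.0.16), with 1 mean per group over all 12 libraries. P-values, two-sided and Benjamini-Hochberg adjusted over all loci tested, measure the spread between cultures of 1 line. The threshold for a call was 0.05. Values with ± are SE for fold changes and SD (n = 4) for levels. CPM and FPKM were computed here from the counts. Differences in family shares were tested by exact permutation. Sums and counts over members carry no test. The fit was tested on simulated data.

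Named genes were the 4 largest rises and falls per comparison among called members without overlap and with at least 1 CPM, paralog families, core subunits and the highest member of each complex. Other genes were named after their values were seen, and the values of 1 member are not reported here. Deviations from the group mean of same-numbered Eo- and Eo+ libraries correlated across loci at 0.395, 0.177, 0.17 and 0.142, so that the replicate number pairs both fractions. The study describes 4 sets of differentiation with 4 ESC libraries among them. Same-numbered ESC libraries correlated with the fractions at -0.084 to 0.198. Alternatives were other scalings and filters, edgeR's quasi-likelihood test, DESeq2 1.42.0, a minimum change of 2-fold, leaving out each library, leaving out shared loci, and the replicate block. The fit of the fractions alone with the block, and the exact test over its pairs, were chosen after seeing the data.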

Additional observations from a re-analysis of the deposited data

Results flagged for a closer look

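Of 138 groups of 4 libraries examined at the named members, 6 held 1 library whose gap to the nearest of the other 3 passed Dixon's 95% critical value. Chance marks about 5% of such groups. In ESCs, replicate 1 was low at Atp5g1, with 245 CPM against 282 to 289 CPM in the other 3, and at Cox7b2, with 0.378 CPM against 0.550 to 0.563 CPM. Replicate 5 of ESC was high at Ndufa4, with 211 CPM against 186 to 187 CPM. In Eo+ cells, replicate 5 was low at Sdha, with 237 CPM against 260.3 to 264 CPM, and at the Sdhd locus, with 219.7 CPM against 238 to 241 CPM. Replicate 1 of Eo+ was the only one of its group with counts at Cox6a2 (0.00892 CPM).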

How the results depend on the processing

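The counts of members called higher depended most on the processing, and no named member reversed its direction past the threshold. In Eo+ vs ESC, 11 members were called higher, and the count was 18 with library totals, 5 with a filter of 1 CPM and 3 without a filter on low values. In Eo- vs ESC, 11 became 26 with library totals, 5 with DESeq2, 4 with DESeq2 size factors, 4 with the 1 CPM filter, 3 without a filter and 2 with all classes of locus. In Eo+ vs Eo-, library totals gave 14 lower, all classes of locus 6 higher and 4 lower, and no filter 1 higher. Requiring a change of at least 2-fold as well left 5 calls in Eo+ vs ESC (1 higher, 4 lower), 2 in Eo- vs ESC (0 higher, 2 lower by limma) and 3 in Eo+ vs Eo- (1 higher, 2 lower). With library totals, the summed FPKM of complex II in Eo- cells was 1.03 times that of ESCs. The cause of these shifts was not tested.

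With the replicate number as a block over all 12 libraries, Eo- vs ESC gave 18 higher, and over both fractions alone Eo+ vs Eo- gave 17 calls, of which 4 were higher. Whether the number also pairs the ESC libraries is less clear, since their deviations did not follow those of the fractions in every set. Over pairs of both fractions, the shares of Atp5g1 and Cox7b differed by -2.33 and 0.571 points, in designs that cannot reach the threshold (smallest exact p 0.125). The block moved no other count of calls by more than 1.5 times.

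Leaving out each library in turn gave 4 to 17 higher and 13 to 20 lower in Eo- vs ESC, the 17 and 13 both where Eo- replicate 1 was dropped. For Eo+ vs Eo- there were 6 to 16 calls, 1 to 3 higher and 5 to 14 lower. The share of Atp5g1 differed by -9.37 to -8.61 percentage points in Eo+ vs ESC, by -7.04 to -6.24 in Eo- vs ESC and by -2.60 to -2.17 in Eo+ vs Eo-. That of Cox7a1 differed by -18.8 to -13.9 and by -13.0 to -8.33 points in Eo+ vs ESC and Eo- vs ESC, that of Cox7b by 0.574 to 0.664 and 0.552 to 0.608 points in Eo+ vs ESC and Eo+ vs Eo-, and that of Cox6a1 by 0.0214 to 0.0619 and 0.0183 to 0.0587 points in Eo+ vs ESC and Eo- vs ESC, lowest without replicate 6 of ESC. With 3 against 4 libraries the exact permutation test cannot give less than 0.0571, so these differences could not pass it. Over the named members, 2589 alternative values kept their direction and side of the threshold, 52 gained a call and 95 lost one. Depth limited only Cox6a2 and Cox8b, near the limit that a count of 0 allows.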
